A study of Mus musculus with 6 samples.

Results

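Airway basal cells are the progenitors of the pseudostratified epithelium of the trachea and large bronchi. They sit on the basement membrane, which they hold through hemidesmosomes, and they divide to give secretory (club and goblet) and ciliated cells. Transcription factor p63, encoded by *Trp63*, and a keratin pair that includes keratin 5 define them in most tissues where they are found. Here they were taken from 6 single-cell RNA-Seq libraries of CD45- mouse lung cells as the barcodes that held at least 1 unique molecular identifier (UMI, a tag that marks 1 captured transcript) of at least 3 of the 4 genes *Krt5*, *Krt15*, *Trp63*, and *Aqp3*, and none of *Lamp3*, *Ptprc*, *Cdh5*, *Col1a2*, or *Foxj1*. These 5 excluded genes mark AEC2s (the alveolar cells that make surfactant), leukocytes, endothelium, fibroblasts, and ciliated cells. The rule found 56 cells among 44096 barcodes with at least 500 genes, at least 1000 UMIs, and under 15% mitochondrial UMIs. Because 4 genes of the cells themselves chose them, the levels of those 4 genes are a description and carry no test, and every other gene was measured in cells picked by genes that can vary together with it.

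There were 4 control libraries and 2 libraries labelled Zip8 knockout, all from C57BL/6 mice of 10 to 12 weeks, 2 weeks after 4 doses of tamoxifen. In the knockout, *Sftpc*-CreER removes *Slc39a8* (ZIP8, a zinc importer) from floxed alleles and turns on Rosa26-tdTomato. The *Sftpc* promoter drives the Cre in AEC2s, so the design does not aim at airway cells. The controls were littermates. Their alleles are stated for another assay of the study, organoid culture, but not for these libraries, and neither is the number of mice behind a library. The libraries held 93852253 to 118771907 UMIs. Control libraries 1 to 4 gave 7, 18, 22, and 4 basal cells, and libraries 1 and 2 labelled Zip8 knockout gave 0 and 5. In AEC2s, chosen by at least 3 of *Lamp3*, *Etv5*, *Abca3*, and *Slc34a2*, *Slc39a8* was at 219, 222, 179, and 208 CPM (a gene's UMIs over all UMIs of the summed cells, scaled to parts per 1000000) in control libraries 1 to 4 and at 196 and 203 CPM in those labelled Zip8 knockout. The 2 ranges overlapped. Counts of transcript 3′ ends do not tell the deleted part of the gene from the rest, so this level does not check the labels.

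Some libraries stood apart in ways that bear on the basal cells. A doublet score marked 18 of the 56 cells as likely doublets, and 16 of these were among the 22 cells of control library 3, with 2 among the 4 of control library 4 and none elsewhere. Of all kept barcodes, it marked 874 of 7301, 1685 of 9507, 1149 of 7366, and 1057 of 8679 in control libraries 1 to 4. In libraries 1 and 2 labelled Zip8 knockout it marked 672 of 5903 and 355 of 5340. The barcodes of 11 of the 56 were also present in another library, but for none did the other library hold more UMIs. Of all barcodes of a library, kept or not, between 5006 of 14816 (control library 4) and 12863 of 17725 (control library 3) were shared in this way. Against club cells 1699 genes differed over the 4 libraries with at least 5 basal cells, 1061 without control library 3, and 1234 without likely doublets. For genes given with a log2 fold change, those that did not pass once a library or the likely doublets were left out are named below. The depth of a basal cell ranged from 2450 to 77989 UMIs around a median of 11722.5, and the median cell had 3326.5 genes. Among the 4 libraries that entered the tests, control libraries 1 to 3 and library 2 labelled Zip8 knockout, the basal cells of control library 1 were the shallowest, with a median of 8333 UMIs.

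How often the 4 genes of the rule occurred together was fixed by the rule, and their counts are a description. All 56 cells held *Krt15* and *Aqp3*, 52 held *Trp63*, and 46 held *Krt5*, and 42 held all 4. Of the 14 cells with exactly 3, 10 lacked *Krt5* and 4 lacked *Trp63*. Just outside the rule were 22 cells with 2 of the genes. Those were mostly cells with *Krt15* (21) and *Aqp3* (20), only 2 had *Krt5*, 1 had *Trp63*, and 2 had *Krt17*, a basal keratin that the rule did not use. In contrast, *Krt17* was present in 9 of the 14 cells with 3 genes of the rule and in 35 of the 42 with all 4. Of the remaining kept barcodes with no UMI of the 5 excluded genes, 2651 held none of the 4 and 85 held 1.

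*Krt5* (keratin 5, a type II keratin) lies on the minus strand of chromosome 15 of mm10 from 101707070 to 101712898. Summed over the basal cells of a library, it was at 518, 341, 380, and 210 CPM in control libraries 1 to 4 and at 294 CPM in library 2 labelled Zip8 knockout. *Krt15* (keratin 15, a type I keratin; chromosome 11, 100131758 to 100135928, minus strand) was at 1209, 1311, 1108, and 887 CPM in the controls and at 3759 CPM in the other library, where 5 cells hold the value. *Trp63* (chromosome 16, 25683763 to 25892102, plus strand) was at 442, 214, 224, and 242 CPM and 224 CPM in the same order. *Aqp3* (aquaporin 3, a channel for water and glycerol; chromosome 4, 41092722 to 41098183, minus strand) was at 648, 844, 809, and 387 CPM and 839 CPM. Within single cells these genes spread widely, with *Krt5* from 0 to 1770 CPM around a median of 401 CPM and *Krt15* from 25.6 to 6100 CPM around 1260 CPM. The plot of marker levels by cell shows this spread for each gene.

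**Figure D1:**
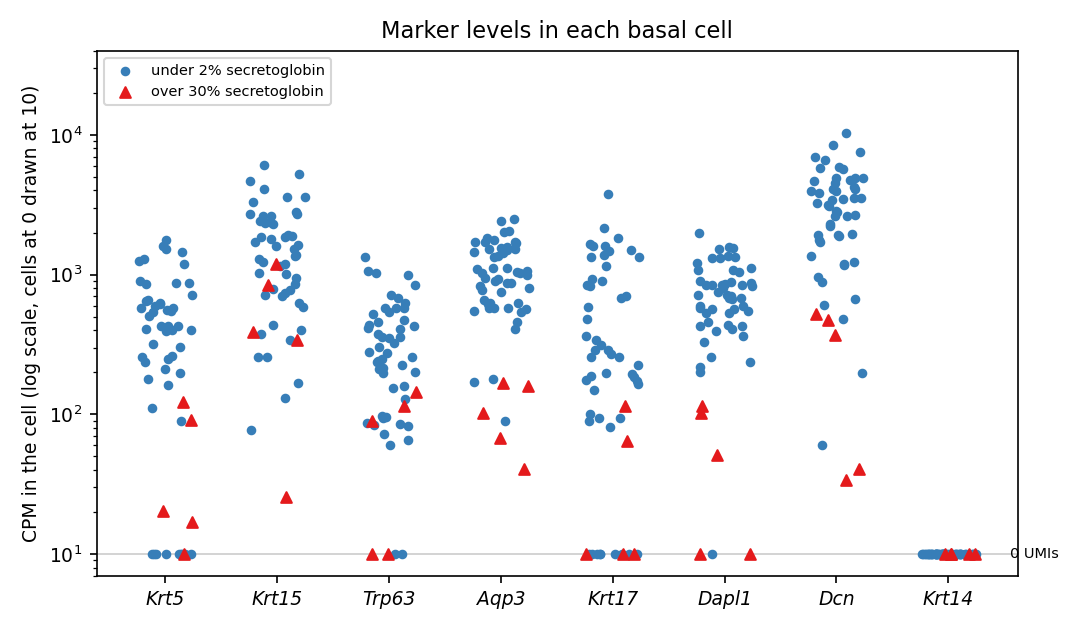
Level of 8 genes in each of the 56 basal cells, in CPM on a log axis, with cells that held no UMI drawn at 10. Blue circles are the 51 cells with under 2% secretoglobin UMIs, red triangles the 5 cells with over 30%, which sit low for *Krt5*, *Aqp3*, *Dapl1*, and *Dcn*, and no cell held *Krt14*.

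RefSeq promoter sequences (mm10, GRCm38.p6) were at hand for 4 of 8 basal genes looked up: *Krt5*, *Krt14*, *Aqp3*, and *Dapl1* (death-associated protein-like 1), but not *Krt15*, *Krt17*, *Trp63*, or *Dcn*. The 250 bases before the transcription start of 3 genes that most of these cells held are shown to let their core promoters be compared. They are given 5′ to 3′ on the gene's strand, with TATAAA, the core of a TATA box, in capitals. The windows are chr15:101712906-101713155 (minus strand) for *Krt5*, chr4:41098184-41098433 (minus strand) for *Aqp3*, and chr2:59484403-59484652 (plus strand) for *Dapl1*.
Krt5: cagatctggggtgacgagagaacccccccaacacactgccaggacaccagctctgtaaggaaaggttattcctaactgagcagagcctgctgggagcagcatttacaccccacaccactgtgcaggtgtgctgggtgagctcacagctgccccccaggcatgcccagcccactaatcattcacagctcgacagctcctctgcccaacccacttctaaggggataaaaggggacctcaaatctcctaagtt
Aqp3: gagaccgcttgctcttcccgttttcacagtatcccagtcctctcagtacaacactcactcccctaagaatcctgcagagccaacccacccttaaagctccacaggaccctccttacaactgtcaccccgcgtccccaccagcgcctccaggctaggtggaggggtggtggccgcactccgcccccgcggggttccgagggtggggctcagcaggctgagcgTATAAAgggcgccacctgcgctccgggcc
Dapl1: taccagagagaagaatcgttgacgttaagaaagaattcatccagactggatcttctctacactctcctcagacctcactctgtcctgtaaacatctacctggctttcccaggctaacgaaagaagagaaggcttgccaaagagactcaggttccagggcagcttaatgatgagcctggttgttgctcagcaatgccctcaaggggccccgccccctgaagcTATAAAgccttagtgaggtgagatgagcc
TATAAA was found once each in the *Aqp3* and *Dapl1* windows, in both with its first base 29 bases before the start, and not in that of *Krt5*. Only the exact string was searched, and the *Krt5* window holds the similar gataaaa near its end, which was not counted. TATAAA was searched on both strands and occurs in 12.4% of all 32851 promoter windows of this length. TGANTCA, the site of AP-1 factors, is in 6.75% of them and was in none of the 3. A match is a description of the letters and not of use.

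The 56 cells were not alike in their secretory genes. In 51 of them, secretoglobins, the secreted proteins that club cells make in bulk, took 0.436% to 1.86% of a cell's UMIs. In the other 5 they took 34.2% to 45.9%, and no cell lay between. These 5 cells came from all 4 control libraries (1, 1, 2, and 1 cells) and held 43792 to 77989 UMIs, more than any of the 51, which reached 21324. Of the 5, 1 was called a likely doublet, and the barcodes of all 5 were also present in another library, as were those of 6 of the 51. Their own basal markers were thin or absent: *Krt5* was found in 4 of the 5 at a median of 20.4 CPM, against 426 CPM in the 51, and *Aqp3* in all 5 at 102 CPM against 1030 CPM. The cells of 49023 UMIs (control library 2) and 58851 UMIs (control library 3) each held 1 UMI of *Krt5*. Neither held any of *Trp63*, *Krt17*, or *Dapl1*. *Scgb3a1* stood at a median of 51400 CPM in the 5 and 188 CPM in the 51. *Muc5b*, a gel-forming mucin, was in all 5 and in 1 of the 51, and *Tff2*, a trefoil factor of mucous cells, in all 5 and in 2 of the 51. Of the 22 cells just outside the rule, 15 were over 30% as well, and the barcodes of 11 of these 15 were also present in another library. Whether the 5 are single cells with both sets of transcripts, 2 cells under 1 barcode, or neither was not tested. The plot of secretoglobin share against UMIs shows the 2 groups.

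**Figure D2:**
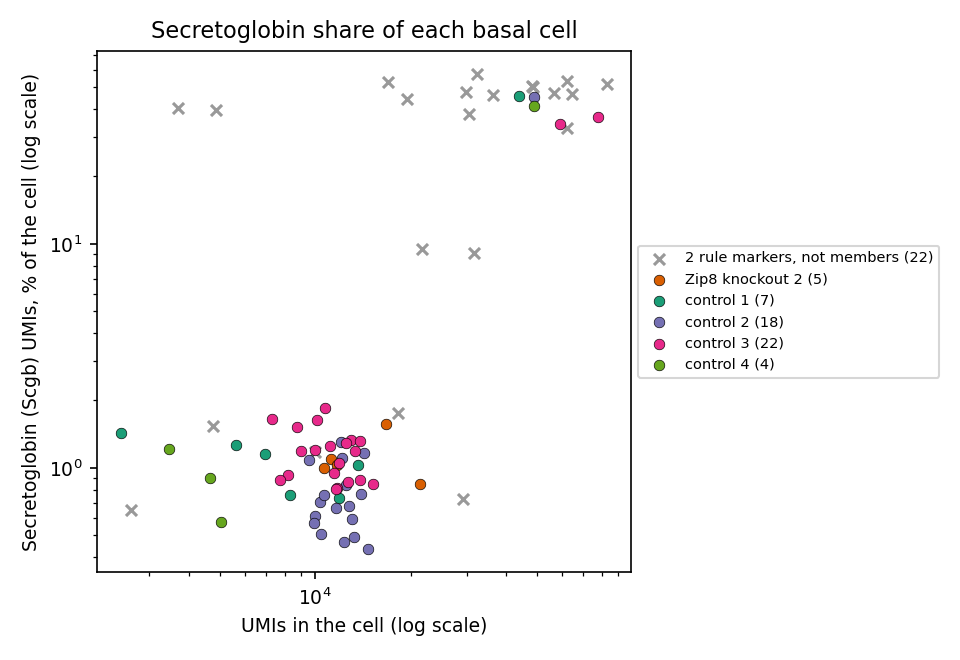
Share of secretoglobin (Scgb) UMIs of each basal cell against its UMIs, both on log axes, with 1 point per cell coloured by library. The 51 cells lie under 2%, the 5 in the upper right lie over 30%, and crosses are the 22 cells with 2 genes of the rule, which were not counted as basal.

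The 5 deep cells weigh unequally on the basal CPM of every gene given by library, not of secretory genes alone. They held 43792 of the 92666 basal UMIs of control library 1 and 49023 of 252391 of control library 2. In control library 3 they held 58851 and 77989 of 360926, and in control library 4 they held 48810 of 61988. Because they also carry most of the secretory UMIs, library sums of these genes follow them. *Scgb1a1* summed to 193300, 77370, 107800, and 264200 CPM in the basal cells of control libraries 1 to 4 and to 9699 CPM in library 2 labelled Zip8 knockout, which had none of the 5 cells. Without the 5 cells it was at 9146, 7105, 10920, and 8044 CPM in the controls. Endothelial cells of the same libraries (those with *Cdh5*, *Pecam1*, and *Cldn5*), which do not make it, held 23430, 8075, 13900, and 14740 CPM of *Scgb1a1* in the controls and 11730 CPM in library 2 labelled Zip8 knockout. In the 51 cells *Scgb1a1* was thus below the CPM of endothelium in each of these libraries. The endothelial cells were shallower, with a median of 3660.5 UMIs against 11722.5 in basal cells, and the part of free RNA in either level was not tested. *Sftpc*, the surfactant gene of AEC2s, likewise stood at 2128, 600, 1165, and 1973 CPM in the 51 cells of the controls and at 2880, 794, 1843, and 3465 CPM in endothelium.

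*Cyp2f2* and *Cbr2* stood above endothelium. *Cyp2f2*, a cytochrome P450 that is used as a club cell marker, was found in every basal cell, at 3080 to 13100 CPM with a median of 7690 CPM. Its library sums were 8730, 8305, 8226, and 6114 CPM in the controls and 8427 CPM in library 2 labelled Zip8 knockout, and without the 5 cells 9126, 8330, 7836, and 5312 CPM. In endothelium it was at 138 ± 52.6 CPM (SD, n = 6). Club cells, which had been chosen by it, were at 7124 ± 722 CPM (SD, n = 6). CPM is over total UMIs, most of which in club cells are *Scgb1a1*, so the 2 levels are not compared. *Cyp2f2* was higher in basal than in ciliated cells by 1.40 on the log2 scale (SE 0.14, adjusted p = 3.7e-14) and higher than in AEC2s by 2.26 (0.31, adjusted p = 0.0135, both from edgeR's quasi-likelihood test). Without control library 1 the latter did not pass (2.20, adjusted p = 0.101). *Cbr2*, a carbonyl reductase of the airway lining, was at 7122, 4648, 5519, and 5921 CPM in the controls and at 6750 CPM in the other library, against 207 ± 64.3 CPM (SD, n = 6) in endothelium.

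To describe what sets the basal cells apart from their neighbours, counts were summed per library and compared with those of club cells (1184 cells with at least 3 UMIs each of *Scgb3a2*, *Cyp2f2*, and *Cbr2*), ciliated cells (1581 cells with at least 3 of *Foxj1*, *Ccdc153*, *Tmem212*, and *Dynlrb2*), and AEC2s (10904 cells). No cell of these sets held *Krt5*, *Trp63*, or the excluded genes of leukocytes, endothelium, and fibroblasts, and genes that chose either set of a comparison were not tested in it. The tests used the 4 libraries with at least 5 basal cells. Of 7387 genes tested against club cells, 1699 passed an adjusted p of 0.05 (2459 at an unadjusted p under 0.05). These were 790 higher in basal cells, which is 10.7% of the genes tested, and 909 lower, or 12.3%. The split depends on scaling. *Scgb1a1* alone took 550600 ± 20226 CPM (SD, n = 4) of club cells, and scaling to total UMIs in place of the trimmed mean of M values (TMM) moved the median log2 fold change of all genes from -0.01 to 1.15 and called 4918 genes higher and 237 lower. That scaling moves all genes of a library alike, here upward, so which listed genes turned follows from the shift and is no test. All 60 listed genes called higher kept their direction under it, and of 54 called lower, 7 turned: *Krt8*, *Krt18*, *Cdh1*, *Cldn7*, *Gsta3*, *Hes1*, and *Gprc5a*. Of these, *Krt18* (-0.44 by TMM, adjusted p = 0.0117) also did not pass without control library 2 (-0.36, adjusted p = 0.107), without control library 3 (-0.52, adjusted p = 0.0671), or without likely doublets (-0.24, adjusted p = 0.386). The 1061 genes called without control library 3 were 481 higher and 580 lower, and 979 of them were called in the same direction with all 4 libraries.

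Further basal markers, 20 genes that the rule did not use, came first. Of the 19 tested against club cells, 17 were higher, none was lower, and 2 did not pass, beside 10.7% of all genes that were higher. Basal cells were picked by basal genes, and the 3 comparison sets were barred from holding *Krt5* or *Trp63*. Genes that vary together with these could come out higher through that choice, so such counts are a description and no independent support. The median log2 fold change was 3.00 against -0.01 over all genes. Without control library 3, 16 of 18 were higher, and without likely doublets 17 of 18. *Krt17* (keratin 17; chromosome 11, 100256217 to 100261029, minus strand) was at 399, 432, 529, and 194 CPM in the basal cells of control libraries 1 to 4 and at 126 CPM in library 2 labelled Zip8 knockout, and between 0 and 0.786 CPM in club cells. Ciliated cells and AEC2s also stayed under 1 CPM in every library, so the sets did not overlap. Its log2 fold change against club cells was 8.85 (standard error 0.31, adjusted p = 2.9e-14). *Dapl1*, which is used as a marker of basal cells that are not dividing, was at 421, 733, 446, and 274 CPM and 713 CPM in the same order. Club cells held 1.63 ± 1.48 CPM of it (SD, n = 4), and the log2 fold change was 6.998 with a standard error of 0.59 (adjusted p = 0.0014). *Dlk2* (a non-canonical Notch ligand; chromosome 17, 46297421 to 46303271, plus strand) was at 205, 159, 150, and 48.4 CPM and 154 CPM. By TMM, *Dlk2* was 8.13 above club cells on the log2 scale (standard error 0.43, adjusted p = 1.5e-11, edgeR). In club cells it rested on 3 UMIs in all. The ratio of pooled CPM, which is over total UMIs, was 803 with a counting interval of 268 to 3950.

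The keratins split. *Krt19* (simple epithelial keratin 19) was in all 56 cells, at 1144, 1105, 1504, and 791 CPM in the controls and 1761 CPM in the other library, and was higher than in club cells (log2 fold change 0.87, adjusted p = 5.6e-05), ciliated cells (1.34), and AEC2s (3.75). *Krt8*, the simple epithelial keratin of luminal cells, was at 658, 333, 499, and 597 CPM and 321 CPM, lower than in ciliated cells (-1.71, adjusted p = 6.9e-13) and higher than in AEC2s by 0.58 (adjusted p = 0.00057). The difference from AEC2s did not pass without control library 1 (0.31, adjusted p = 0.179), without control library 3 (0.50, adjusted p = 0.054), or without the 5 cells rich in secretoglobins (0.04, adjusted p = 0.91). Against club cells its log2 fold change was -1.01 by TMM and 0.18 by total UMIs, and its CPM was higher in 2 of 4 libraries and lower in 2. *Krt14*, the usual partner of keratin 5 in dividing basal cells and in myoepithelium, was in 0 of 56 cells, which allows a share of cells with a UMI, not of cells expressing it, of up to 5.36%. Across all barcodes of the series it had 759 UMIs, in 340 barcodes. *Krt13*, a keratin of hillock and squamous cells, was in 1 of the 56, and *Krt6a*, *Krt6b*, and *Krt16*, the keratins of wounded and hyperproliferative epithelium, were in none.

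Next were genes that hold basal cells to the basement membrane. Of 12 listed genes of hemidesmosomes and laminin-332, 10 were tested against club cells and 10 were higher, with a median log2 fold change of 2.26; some, such as *Itgb4*, *Col17a1*, and *Lamb3*, are also on the list of further basal markers. Among all genes tested against club cells, 10.7% were higher. Without control library 3, 7 of 10 hemidesmosome and laminin-332 genes passed, and without likely doublets 9 of 10. Against ciliated cells 7 of 10 tested were higher and 3 did not pass (16.2% of all genes were higher). Against AEC2s 8 of 11 were higher, 1 was lower, and 2 did not pass (12.3% of all genes were higher and 16.5% lower). *Col17a1* (collagen XVII, the transmembrane collagen of hemidesmosomes) was at 97.1, 59.4, 47.1, and 32.3 CPM in the controls and 27.9 CPM in library 2 labelled Zip8 knockout, or 6.56 above club cells on the log2 scale (adjusted p = 6.6e-10). *Itgb4* (integrin β4, its partner in the hemidesmosome) was at 173, 95.1, 116, and 96.8 CPM and 182 CPM, with log2 fold changes of 2.86 against club cells (adjusted p = 3.2e-08), 0.62 against ciliated cells (adjusted p = 0.012), and 5.92 against AEC2s. Its difference from ciliated cells did not pass without control library 1 (0.41, adjusted p = 0.17) or without likely doublets (0.57, adjusted p = 0.072). *Lamb3* (laminin β3) was higher than in club cells by 3.57 and than in ciliated cells by 6.00, but only by 0.64 than in AEC2s (adjusted p = 0.01), which held 64.8 ± 2.01 CPM (SD, n = 4) against 117 ± 44.7 CPM in basal cells. That last difference did not pass without control library 2 (0.34, adjusted p = 0.46), without control library 3 (0.50, adjusted p = 0.213), or without likely doublets (0.58, adjusted p = 0.0762). Of 7 desmosome genes tested against club cells, 4 were higher, beside 10.7% of all genes. They included *Perp* (3.00, adjusted p = 5.5e-10) and *Dsp* (desmoplakin, 1.46). The remaining 3, *Jup*, *Pkp2*, and *Dsg2*, did not pass. Without likely doublets 4 were higher and *Pkp2* was lower (-1.55, adjusted p = 0.0374).

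**Figure D3:**
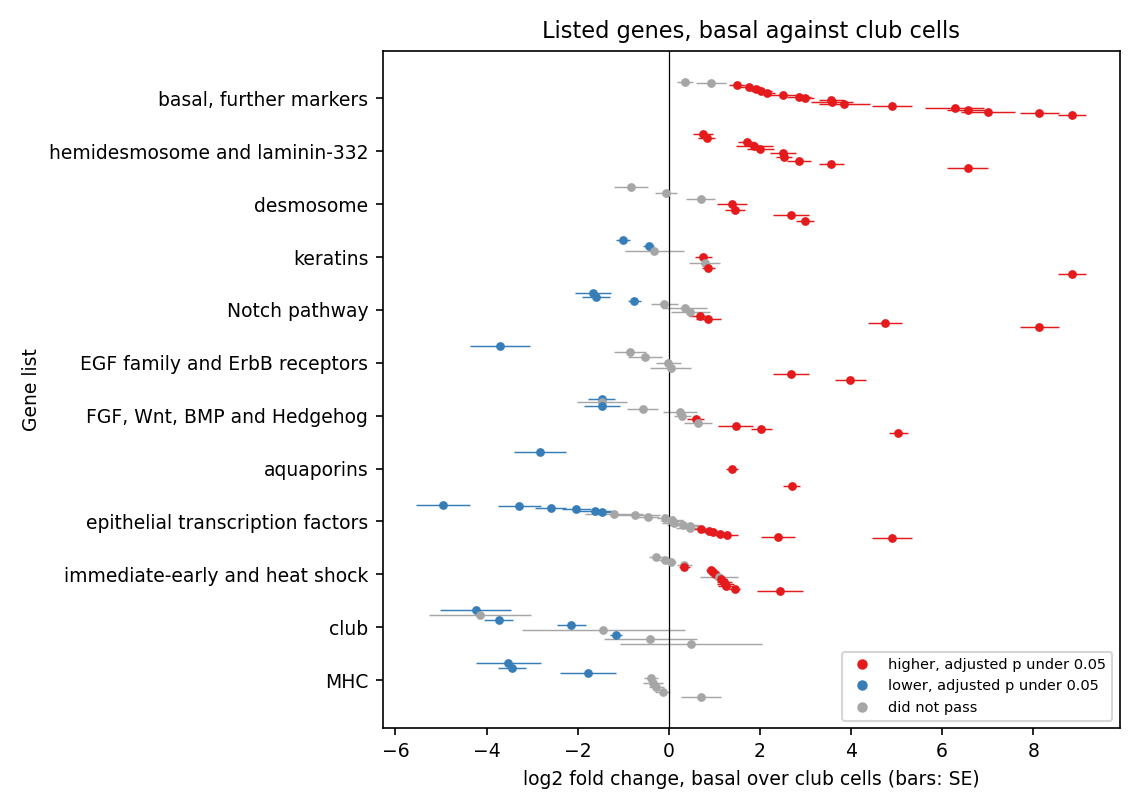
Log2 fold change of basal over club cells by TMM for the tested members of 12 gene lists, 1 point per gene with its standard error. Red points passed as higher, blue as lower, and grey did not pass; the tested further basal markers and hemidesmosome genes all lie to the right of 0.

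Signalling genes moved in both directions. By the Notch pathway, basal cells and their daughters settle which of them becomes secretory. Of its 10 genes tested, 4 were higher than in club cells, *Dlk2* among them, and 3 lower, beside 10.7% and 12.3% of all genes. *Jag2*, a Notch ligand, was at 54, 39.6, 49.9, and 16.1 CPM in the basal cells of the controls and 41.9 CPM in the other library, against 0.752 ± 0.0939 CPM (SD, n = 4) in club cells (log2 fold change 4.75, adjusted p = 4.4e-09). Ciliated cells held 26.6 ± 5.41 CPM, from which basal cells differed by 0.98 (adjusted p = 0.0093), but not without control library 3 (0.74, adjusted p = 0.21) or without likely doublets (0.87, adjusted p = 0.0751). The receptor *Notch1* was 0.68 above club cells (adjusted p = 0.043), which did not pass without any 1 of the 4 libraries (adjusted p = 0.0895 to 0.171). *Notch2* was lower (-1.60) by TMM and did not pass by total UMIs (-0.44, adjusted p = 0.238). The Notch target *Hes1* was among the genes whose direction turned with scaling, at -0.76 by TMM and 0.44 by total UMIs. Without control library 3, 2 of the 9 Notch genes tested were higher and 2 lower, and without likely doublets 4 of 9 were higher and 2 lower.

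Among growth factors, *Wnt4*, a secreted Wnt ligand, was at 259, 234, 324, and 96.8 CPM in basal cells of the controls and 489 CPM in library 2 labelled Zip8 knockout. Club cells held 4.26 ± 0.62 CPM (SD, n = 4), which put basal cells 5.04 higher on the log2 scale (adjusted p = 3.3e-13), and AEC2s held 2.08 ± 1.23 CPM. Ciliated cells held 200 ± 31.8 CPM (log2 fold change 0.75, adjusted p = 9.8e-05, higher in 3 of 4 libraries). *Nrg1* (neuregulin 1, a ligand of ErbB receptors) was at 162, 190, 114, and 129 CPM and 69.9 CPM, higher than in all 3 neighbours (3.98, 1.95, and 6.84). *Egfr*, the receptor of epidermal growth factor on which basal cells depend for growth, was higher as well (2.68, 1.27, and 2.55), although against ciliated cells it did not pass without control library 2 (0.92, adjusted p = 0.104). Of the 10 genes of the EGF family and its receptors, 7 were tested against club cells. Among these, 2 were higher, 1 was lower, and 4 did not pass, beside 10.7% of all genes higher and 12.3% lower.

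Of 9 aquaporins, 3 were in at least 20% of the cells: *Aqp3*, which the rule used, *Aqp4*, and *Aqp5*. *Aqp5*, known from alveolar type I and gland cells, was in all 56 cells at 1219, 915, 1089, and 452 CPM in the controls and 1551 CPM in the other library, and *Aqp4* in 55 at 335, 511, 302, and 178 CPM and 349 CPM. Both were higher than in club cells (1.38 and 2.69), ciliated cells (4.47 and 3.19), and AEC2s (1.01 and 6.33). *Aqp7* and *Aqp8* had no UMI, and *Aqp1*, *Aqp2*, *Aqp9*, and *Aqp11* were in 4, 2, 1, and 4 cells. *Aqp1*, the third aquaporin tested against club cells, was lower (-2.83, adjusted p = 0.00082).

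Of 32 listed transcription factors of epithelium, 19 were in at least 20% of the cells. *Nkx2-1*, the factor of lung identity, was in 49 of 56 cells at 130, 206, 139, and 80.7 CPM in the controls and 196 CPM in library 2 labelled Zip8 knockout, which was lower than in AEC2s (-1.25, adjusted p = 2.7e-12) and did not pass against club cells by TMM (-0.08, adjusted p = 0.825), while by total UMIs it was higher (1.10, adjusted p = 3.12e-05). *Sox2*, the factor of the conducting airway, was in 48 and was higher than in club cells (1.12, adjusted p = 3.6e-05), ciliated cells (0.93), and AEC2s (4.35). *Foxa1* and *Foxa2*, related forkhead factors of lung epithelium, went apart. *Foxa1* was in 54 cells and higher than in all 3 sets (0.96, 1.18, and 1.01). *Foxa2* had 7 UMIs, all in 3 of the 5 cells rich in secretoglobins and none in the other 51, at 0, 19.8, 2.77, and 16.1 CPM in the controls and 0 CPM in the other library, against 37.2 ± 7.24 CPM (SD, n = 4) in club cells (-3.29, adjusted p = 1.7e-05), and it was lower than in ciliated cells (-3.73) and AEC2s (-3.87) too. *Snai2* (Slug, a repressor found in basal layers; 4.89) and *Pax9* (a paired-box factor of foregut epithelium; 2.39) were higher than in club cells. Over the whole list of 32 factors, 23 were tested against club cells. Among these, 7 were higher, 6 were lower, and 10 did not pass, beside 10.7% of all genes higher and 12.3% lower.

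*Dcn* encodes decorin, a small proteoglycan of connective tissue that is best known from fibroblasts. It lies on the plus strand of chromosome 10 from 97479609 to 97518143. Every one of the 56 basal cells held it, with a median of 2830 CPM and a range of 34 to 10300 CPM, and its library sums were 1802, 2247, 2627, and 1113 CPM in the controls and 3158 CPM in library 2 labelled Zip8 knockout. Endothelium held 109, 120, 70.8, and 98 CPM in the controls and 59 CPM in the latter, so the basal cells were above endothelium in each library. At an equal depth of 2000 UMIs per cell, a *Dcn* UMI was in 87.5% of basal cells, 31.7% of club cells, and 16.4% of endothelial cells. Its log2 fold change was 5.20 against ciliated cells (adjusted p = 0.0077), which did not pass without control library 3 (5.14, adjusted p = 0.0522), and 4.80 against AEC2s (adjusted p = 0.01). Against club cells it was 2.99 with an adjusted p of 0.128, although basal cells were higher in 4 of 4 libraries, and 4.18 by total UMIs, where it passed (adjusted p = 0.0321). It also passed without library 2 labelled Zip8 knockout (2.29, adjusted p = 0.0139) and with DESeq2 (2.99, adjusted p = 3.06e-07). In the whole series 57843 barcodes held *Dcn*. Of 8 listed fibroblast genes, *Col1a2* was barred by the rule, *Lum* was in 1 cell, *Pdgfra* in 2, *Col3a1* in 6, *Col1a1* in 9, and *Inmt* and *Mfap4* in 17 each of the 56, and *Dcn* gave 1977 of the list's 2036 UMIs. *Col1a1* was lower than in club cells (-2.70, or -1.11 with an adjusted p of 0.0999 in cells with at least 1000 genes, at least 2000 UMIs, and under 10% mitochondrial UMIs) and did not pass against ciliated cells or AEC2s. The list summed to 1850, 2350, 2670, and 1160 CPM in the controls and 3280 CPM in the other library. The plot of levels by library shows *Dcn* beside genes of the other groups.

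**Figure D4:**
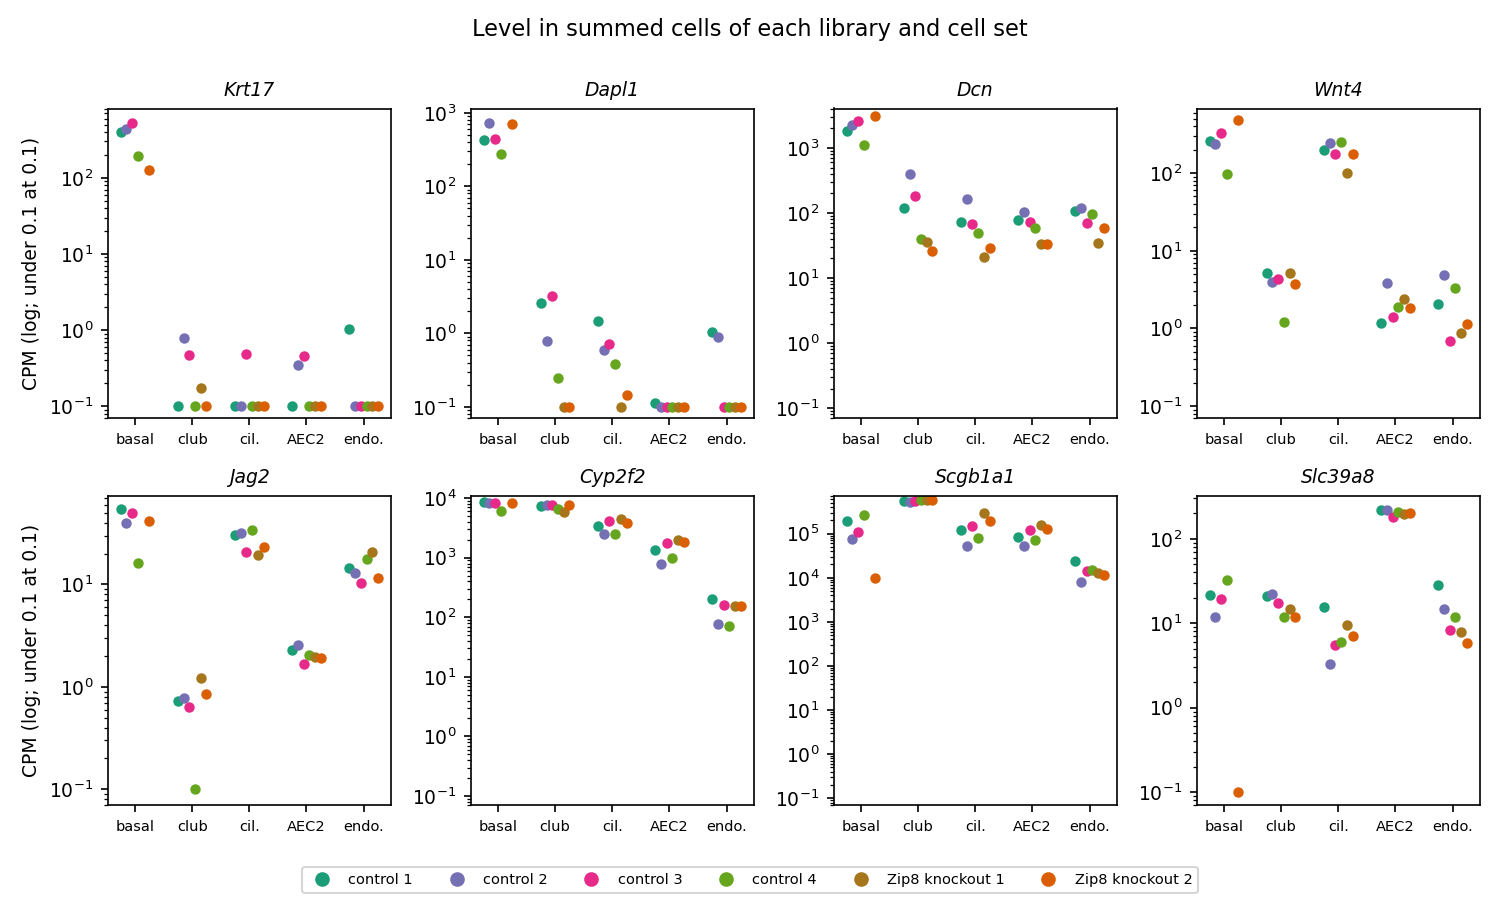
Level of 8 genes in the summed cells of each library for basal, club, ciliated (cil.), AEC2, and endothelial (endo.) cells, in CPM on a log axis, 1 point per library, with values under 0.1 drawn at 0.1. *Krt17* and *Dapl1* are under 5 CPM in every other set, *Wnt4* and *Jag2* are also high in ciliated cells, and *Cyp2f2* stays high in basal cells of all 5 libraries that had any.

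The 15 genes with the largest positive change against club cells, among those that passed, moved 1 way in every library, and were held by at least 50% of basal cells, were *Krt17*, *Dlk2*, *Trim29*, *Dapl1*, *Defb1*, *Abi3bp*, *Wnt4*, *Hlf*, *B3galt2*, *Fermt1*, *1700025G04Rik*, *Pitpnc1*, *Hdgfrp3*, *Pdzd2*, and *Nrg1*, with log2 fold changes from 8.85 down to 3.98. *Trim29*, a protein used as a marker of basal layers, was at 108, 83.2, and 103 CPM in control libraries 1 to 3 and 97.8 CPM in library 2 labelled Zip8 knockout, and no ciliated cell of these libraries held it, which makes it at least 510-fold higher in basal cells (against 3 UMIs in the pooled ciliated cells). *Defb1*, a β-defensin, was at 32.4, 162, 136, and 126 CPM, against at most 1.58 CPM in club cells. *Abi3bp*, an extracellular matrix protein, was at 648, 880, 676, and 405 CPM. *Fermt1* (kindlin-1, which activates integrins) was at 32.4, 87.2, 63.7, and 112 CPM. The 8 genes with the largest negative change under the same limits, here at least 50% of club cells, were *Retnla*, *Cxcl15*, *Hp*, *Sfta2*, *Ager*, *Nupr1*, *Pdlim2*, and *Clic3*. Of these, *Cxcl15* is on the list of AEC2 genes and *Ager* on that of alveolar type I cells. Members of other cells' lists were also lower than in club cells, beside 12.3% of all genes. These were 7 of 10 AEC2 genes tested (median log2 fold change -3.01), 5 of 5 ciliated, and 4 of 5 fibroblast genes. Of 9 alveolar type I genes, 5 were lower and 3 were higher. The gate of club cells also shared 112 cells with that of AEC2s and 27 with that of ciliated cells, and their part in these differences was not tested. *Retnla* (a resistin-like secreted protein) was at 202, 150, 378, and 386 CPM in the club cells of the 4 libraries and at 21.6, 0, 8.31, and 0 CPM in their basal cells. *Hp* (haptoglobin, which binds free haemoglobin) was at 1284, 317, 945, and 126 CPM in basal cells against 4232 to 4940 CPM in club cells, with an adjusted p of 0.047. It no longer passed without any 1 of the 4 libraries, and *Nupr1* (-3.81, adjusted p = 0.0294) did not pass without control library 1 (adjusted p = 0.0809), without control library 2 (adjusted p = 0.154), or without likely doublets (-3.73, adjusted p = 0.0781).

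Against ciliated cells 3549 of 8191 genes passed, 1328 higher in basal cells (16.2%) and 2221 lower (27.1%). All 19 further basal markers tested were higher. By the same limits, the 5 with the largest positive change were *Krt17*, *Trim29*, *Dlk2*, *Dapl1*, and *Hlf*. The 5 with the largest negative change, *Calml4*, *Ccdc113*, *1700016K19Rik*, *Sntn*, and *Meig1*, had no UMI in the basal cells of the 4 libraries and 6530 to 8523 UMIs in their ciliated cells, and were at least 107-fold lower in basal cells (against a floor of 3 UMIs over the group). Against AEC2s 3045 of 10606 passed, 1300 higher (12.3%) and 1745 lower (16.5%), and scaling to total UMIs gave 2072 and 1170. Of the 19 further basal markers, 17 were higher. *Dapl1*, *Dlk2*, *Defb1*, *Krt17*, and *Trim29* led, each with 3 to 14 UMIs in all AEC2s of the 4 libraries. At the other end, *Pla2g1b*, *Mlc1*, *Cox6a2*, *Nkd1*, and *Slc26a9* had no UMI in the basal cells of the 4 libraries and were at least 27.2-fold lower. Genes of MHC class II, which AEC2s express, were low, with *H2-Aa* in 3, *H2-Ab1* in 4, and *Cd74* in 9 of the 56 cells and log2 fold changes of -8.46, -6.51, and -7.88 against AEC2s.

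At the equal depth of 2000 UMIs, which every basal cell reached, *Krt17* was in 44.6% of basal cells, 0.208% of club cells, 0.0188% of AEC2s, and 0.0691% of endothelial cells, where it should be absent. *Dapl1* was in 75% of basal cells and 0.52% of club cells. Without thinning, these shares of basal cells were 78.6% and 94.6%, at median depths of 11722.5 UMIs in basal, 7572 in club, and 3660.5 in endothelial cells. The thinning left out 222 club, 48 ciliated, 258 AEC2, and 307 endothelial cells.

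**Figure D5:**
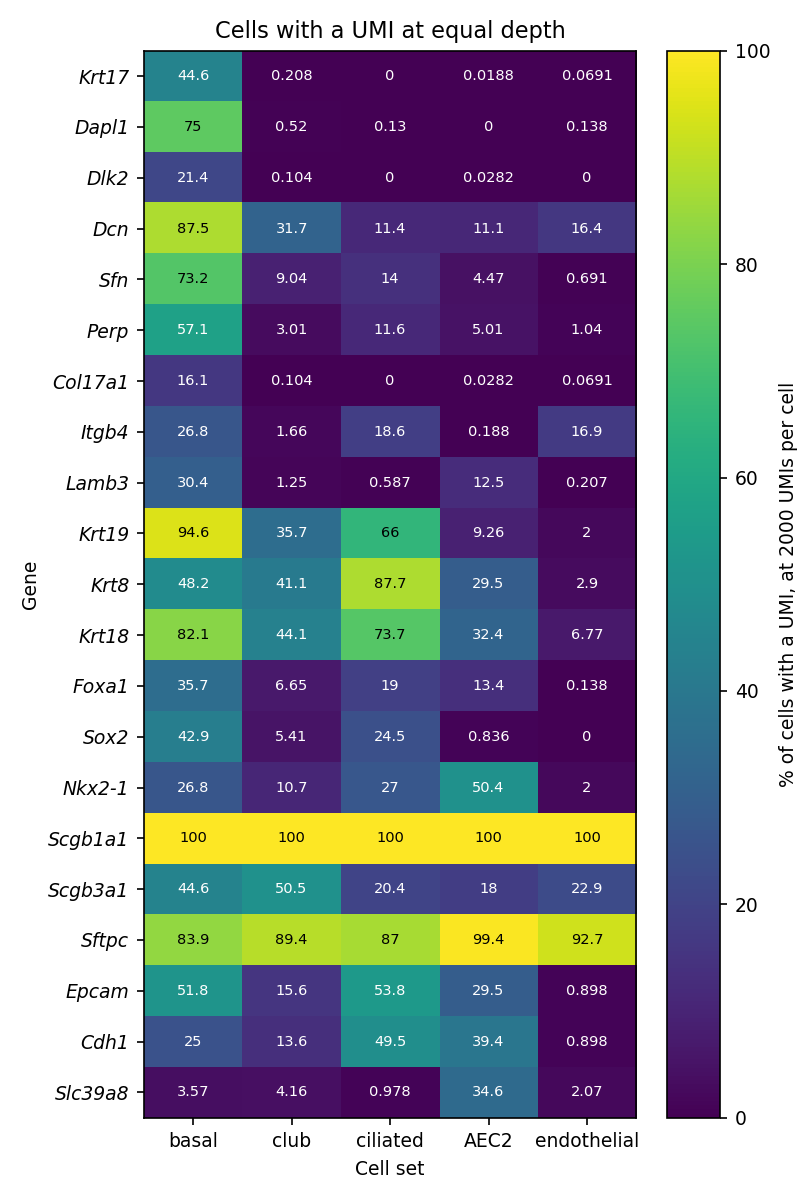
Percent of cells with at least 1 UMI of each gene after every cell was thinned to 2000 UMIs, for 21 genes (rows) and 5 cell sets (columns), with the value printed in each field. *Krt17*, *Dapl1*, and *Dlk2* are near 0 outside basal cells, while *Scgb1a1* and *Sftpc* are found at this depth in most cells of every set.

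Lists that mark division and other tissues held genes at 0 beside genes with UMIs. Of 12 cell cycle genes, 8, including *Mki67*, *Top2a*, *Cdk1*, and *Ccnb1*, had no UMI in the 56 cells, and *Mcm2*, *Mcm5*, *Tyms*, and *Pcna* were in 1, 2, 7, and 16. Of 8 myoepithelial and smooth muscle genes, *Acta2*, *Myh11*, *Cnn1*, and *Actg2* were at 0, *Tagln*, *Des*, and *Lmod1* were in 2, 2, and 4 cells, and *Mylk* was in 13. Of 8 genes of thymic epithelium, which also expresses keratin 5, *Foxn1*, *Psmb11*, *Prss16*, *Aire*, and *Pax1* were at 0, *Ccl25* and *Ly75* were in 5 cells each, and *Pax9* was in 25. Of 12 genes of oesophagus and skin, *Krtdap*, *Sprr3*, *Crnn*, *Ivl*, and *Flg* were at 0, *Krt10* was in 22, *Krt1* in 11, *Sbsn* and *Calml3* in 6 each, *Lor* in 3, *Dmkn* in 2, and *Asprv1* in 1. Lists of other cells were nearly empty, with 5 UMIs over 8 endothelial genes and 4 over 8 macrophage genes (each list holds 1 gene that the rule barred), 1 over 7 neutrophil genes, and none over 5 lymphocyte genes. Of 8 mesothelial genes, *Wt1*, *Lrrn4*, and *Nkain4* were at 0, *Msln*, *Upk3b*, *Muc16*, and *Gpm6a* were in 8, 4, 4, and 1 cells, and *Upk1b* (uroplakin 1b) was in 32 cells and higher than in club cells (2.51, adjusted p = 7.2e-06). Red cell genes summed to 621 CPM in control library 3 and to 21.6 to 290 CPM in the other libraries. A single cell of control library 3 held 168 of the 188 *Hbb-bs* UMIs of the 56 cells. Their part in any result was not tested.

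Of 15 immediate-early and heat shock genes, 10 were higher than in club cells, none was lower, and 5 did not pass, beside 10.7% of all genes that were higher. Without likely doublets 9 were higher. Against ciliated cells 10 were higher and 5 did not pass (16.2% of all genes were higher). There, *Hspa1a* (3.08, adjusted p = 0.219, edgeR) and *Hspa1b* (3.15, adjusted p = 0.151) did not pass without control library 3. Neither did *Jund* (0.45, adjusted p = 0.059) or *Zfp36* (0.47, adjusted p = 0.0699). Against ciliated cells *Hspa1a* also did not pass without likely doublets (3.47, adjusted p = 0.0529, edgeR). Against AEC2s 11 were higher and 4 did not pass (12.3%). *Fos* (a subunit of AP-1) was at 1424, 2239, 1798, and 1726 CPM in the controls and 5255 CPM in library 2 labelled Zip8 knockout, with a log2 fold change of 1.14 against club cells (adjusted p = 9.9e-07) and -0.08 against ciliated cells, which did not pass (adjusted p = 0.834). *Hspa1a* (inducible HSP70) was at 54, 575, 1089, and 436 CPM and 321 CPM. The list summed to 12300, 21600, 21200, and 16100 CPM in the controls and 32300 CPM in library 2 labelled Zip8 knockout.

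*Slc39a8*, the gene targeted in the study, was in 7 of the 56 cells (12.5%, exact 95% confidence interval 5.18% to 24.1%, which covers counting error only). It had 14 UMIs in all, at 21.6, 11.9, 19.4, and 32.3 CPM in the controls and 0 CPM in library 2 labelled Zip8 knockout. Of these 7 cells, 4 were among the 5 rich in secretoglobins, and 3 among the other 51. At 2000 UMIs it was in 3.57% of basal cells, 2.07% of endothelial cells, and 34.6% of AEC2s. Its log2 fold change against AEC2s was -4.04 (standard error 0.29, adjusted p = 6.7e-41, lower in 4 of 4 libraries). Of 27 zinc transporters and metallothioneins, 15 were tested against club cells, of which 1 was higher and 2 were lower, which is near the 10.7% and 12.3% of all genes. *Slc39a8* was one of the latter (-1.43 by TMM, adjusted p = 0.012, and -0.28 by total UMIs). It did not pass without control library 2 (-1.19, adjusted p = 0.122) or without likely doublets (-1.44, adjusted p = 0.0513). Against ciliated cells *Slc39a8* was higher, by 1.40 (adjusted p = 0.0309), which did not pass without control library 1 (1.48, adjusted p = 0.0607) or control library 2 (1.22, adjusted p = 0.127), or with DESeq2 (1.27, adjusted p = 0.118). In that comparison *Slc39a8* was not among the genes tested without control library 3, without likely doublets, or without the 5 cells rich in secretoglobins. Against ciliated cells 13 zinc genes were tested, of which 1 was higher and 5 were lower (16.2% and 27.1% of all genes), and against AEC2s 19, of which none was higher and 4 were lower (12.3% and 16.5%). Of 7 sirtuins, a family of deacylases, none of 3 tested against club cells and none of 7 tested against AEC2s passed. Of 5 tested against ciliated cells, *Sirt3*, a mitochondrial deacylase, was lower (-2.61, adjusted p = 4.7e-07, lower in 4 of 4 libraries), on 7 UMIs in the basal cells.

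The basal cells made up 0.0959%, 0.189%, 0.299%, and 0.0461% of the kept barcodes of control libraries 1 to 4 and 0% and 0.0936% of those labelled Zip8 knockout. The first of the latter had none among 5903 barcodes, which allows a share of up to 0.0508%. The control mean was 0.157% ± 0.111 (SD, n = 4), and the other mean was lower by 0.111 percentage points (exact permutation test over 15 splits, two-sided, p = 0.333). This design can give no p under 0.0667. How much large airway was in the dissected tissue of each library is not stated, and the part of that amount in the share was not tested. Without likely doublets the shares were 0.109%, 0.230%, 0.0965%, and 0.0262% in control libraries 1 to 4 and 0% and 0.1003% in those labelled Zip8 knockout, a difference of -0.0653 percentage points (exact permutation test, p = 0.4).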

How the data were processed

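The libraries were made with the 10x Genomics 3′ assay, and the deposited values are UMI counts per gene and barcode, raw and not normalized, from Cell Ranger 3.1.0 per the file headers (27998 genes, mm10). Magnetically enriched CD45- lung cells were used. Seurat is also named in the submitters' processing notes. Barcodes were filtered as given above, and 44096 of 88578 were kept. The members and gene lists were chosen with earlier results of these data known, and the endothelial set, used for comparison of levels, after the files were seen. Nothing states that the libraries of a group came from separate mice, so p-values measure the spread between libraries, which may be technical.

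Counts were summed per library and cell set, since cells are not replicates, and fitted with edgeR 4.0.16 (quasi-likelihood test, library as a block, TMM, low counts filtered) in R 4.3.3 over the 4 libraries with at least 5 cells of both sets. Both sets of a pair come from the same library, which is what the block pairs. All adjusted p-values are Benjamini-Hochberg values over all genes tested, at a threshold of 0.05, and log2 fold changes are basal over the other set. Named genes were the rule genes, *Slc39a8*, listed genes with a UMI in at least 20% of basal cells, and the genes with the largest changes that passed the test, had 1 direction in every library, and had a UMI in at least 50% of the higher set (15 up and 8 down against club cells, 5 each otherwise). *Foxa2*, *Col1a1*, *Aqp1*, *Sirt3*, the MHC class II genes, and listed genes given by the number of cells that held them were named after their values were seen, where fewer cells held them. Of 390 listed genes, 388 were in the files. Doublets were scored with Scrublet in scanpy 1.11.5 and kept. DESeq2 1.42.0, other scalings, filters, and gates were tried as alternatives. The fits were checked on simulated data. Club, ciliated, and AEC2 gates shared 112 cells (club and AEC2), 27 (club and ciliated), and 4 (ciliated and AEC2).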

Additional observations from a re-analysis of the deposited data

How the results depend on the processing

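Against club cells, 1699 genes passed, but DESeq2 called 1077 (472 higher, 605 lower) and scaling to total UMIs 5155. Leaving out 1 library gave 1061 (without control library 3) to 1685 against club cells, 2696 to 3839 against ciliated cells, and 2138 to 2880 against AEC2s. Without the library block, the pairing of sets from the same library, the counts were 1727, 3761, and 3404. The rule found 89 cells where up to 1 UMI of the excluded genes was allowed. The difference in share between genotypes kept its sign throughout, from -0.157 to -0.0636 with 1 library left out and from -0.168 (without shared barcodes) to -0.0343 (looser cell filter) under the other gates and filters. These alternatives reuse mostly the same cells, and library 1 labelled Zip8 knockout had none under the main rule. The kept sign is therefore no independent test. For the 43 results on genes with the largest changes, 676 of 688 values under the alternatives kept their direction and side of the threshold, 12 no longer passed, and 0 turned. For the other 63 results on single genes given with a value, 930 of 1003 did, 56 no longer passed, 8 passed where the reported value did not (7 of them *Dcn* against club cells), and 9 turned. Those were, against club cells by total UMIs, *Krt8* (0.18), *Krt18* (0.76), *Hes1* (0.44), and *Nkx2-1* (1.10), and, among values that did not pass, *Nkx2-1* against club cells (0.103 in libraries with at least 10 cells, -0.322 to 0.0663 with 1 library left out) and *Fos* against ciliated cells (0.0408 without the block, 0.0141 without the 5 cells rich in secretoglobins, -0.385 to 0.121 with 1 library left out, the lowest of which passed without library 2 labelled Zip8 knockout). Without the block, *Fos* (adjusted p = 0.0627, edgeR), *Aqp1* (0.0892), *Col1a1* (0.304), and *Notch1* (0.0685) no longer passed against club cells. *Hp* accounts for several of the 12, with an adjusted p (edgeR) of 0.061 to 0.203 with 1 library left out. The 56 cells and their sums of few UMIs limit low genes, and the causes of these changes were not tested.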
